A study of Mus musculus with 2 samples.

Results

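Interferon-stimulated genes are the genes that cells transcribe more strongly after an interferon has bound its receptor. The 44 genes described here form a list of such genes that was chosen with earlier results of these data known. All 44 were found among the 53380 features of the count matrices. The study compared endothelial cells, the cells that line blood vessels, from uninjured mouse sciatic nerve (the intact library) with those from the lesion of injured nerve, the bridge region, 7 days after injury (the injured library). Both groups were adult mice that carried the tamoxifen-inducible Cdh5(PAC)-CreERT2 driver, active in endothelium, and a Cre-dependent tdTomato reporter at the Rosa26 locus, spelled Chd5CreER/R26-TdTomato in the labels. Nerves were pooled and digested at 37 degrees C, tdTomato-positive cells without the leukocyte surface protein CD45 were sorted, and 1 library was made per condition. Values were summed over the cells of each class in the authors' cell table, in which 9 class names begin with EC and 1 is INTERMEDIATE, and these names are used here as deposited.

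Type I interferons signal through the receptor chains Ifnar1 and Ifnar2 and the kinases Jak1 and Tyk2 to a complex of transcription factors that holds Stat2 and Irf9 and binds a DNA element called the interferon-stimulated response element (ISRE). Interferon gamma signals through Ifngr1, Ifngr2, Jak1 and Jak2, and its response runs through another element, the gamma-activated site (GAS). The induced genes encode sensors of foreign nucleic acid, proteins that block viral entry, translation and release, GTPases that attack vacuoles holding pathogens, and factors that amplify or end the response.

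Promoter sequences from RefSeq (GRCm38.p6, 250 bases before to 50 after each start) were matched for 32 of the 44 genes. The ISRE core searched was TTTCNNTTTC, or GAAANNGAAA on the other strand, and 18 of the 32 genes (56.25%) held it, against 3.99% of the 27025 genes in the table. The GAS core TTCNNNGAA, which reads the same on both strands, was present in 8 of the 32 genes (25%) and in 9.55% of all genes. The 150 bases before the start are shown for Isg15 (chr4:156200819-156200968, minus strand), Ifit1 (chr19:34640739-34640888, plus strand) and Rsad2 (chr12:26456453-26456602, minus strand), 3 genes whose counts differed strongly between the libraries, with ISRE matches in capitals.
Isg15: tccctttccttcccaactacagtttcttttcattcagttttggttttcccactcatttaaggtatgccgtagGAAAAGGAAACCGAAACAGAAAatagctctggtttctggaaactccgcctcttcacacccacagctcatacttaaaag
Ifit1: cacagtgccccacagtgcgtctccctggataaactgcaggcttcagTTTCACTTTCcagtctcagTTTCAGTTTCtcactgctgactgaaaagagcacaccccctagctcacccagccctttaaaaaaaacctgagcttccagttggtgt
Rsad2: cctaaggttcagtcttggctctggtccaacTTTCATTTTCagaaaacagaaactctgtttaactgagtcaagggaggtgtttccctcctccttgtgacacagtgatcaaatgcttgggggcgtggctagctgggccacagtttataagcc

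Windows of 30 bases around 1 match are shown for Ifit3 (chr19:34583363-34583392, plus strand) and Igtp (chr11:58199512-58199541, plus strand), which were also much lower in the injured library. Bst2 (chr8:71537583-71537612, minus strand) and Ifitm3 (chr7:141010723-141010752, minus strand) are shown because they hold the same element and had nearly equal levels in both libraries. The Ifitm3 match begins 2 bases after its RefSeq start, the Bst2 match 130 bases before.
Ifit3: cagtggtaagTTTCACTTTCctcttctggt
Igtp: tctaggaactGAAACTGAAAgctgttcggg
Bst2: ggcattccagGAAAATGAAActgaaaggct
Ifitm3: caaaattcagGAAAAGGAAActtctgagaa
Among the genes measured in pooled endothelium, the 18 with an ISRE core had a median log2 ratio (injured over intact) of -1.29 and a range of -3.28 to -0.06. The 12 with a promoter but no match had a median of -1.26, so the 2 medians lay close together. A match describes the letters of this window and is not a measured binding site.

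The intact library held 1618 barcodes and the injured one 2023, and 298 barcodes occurred in both. A cell was left out where its barcode had at least 5 times its UMIs in the other library, UMIs being the tags that count captured RNA molecules. This left 718 intact endothelial cells with 4542225 UMIs (median 4461 per cell) and 1274 injured ones with 19989024 UMIs (median 11684). The 7 pan-endothelial markers were all detected and summed to 4553 and 4798 CPM, where CPM scales a gene's UMIs to a common total for the cells summed. The leukocyte markers Ptprc, Tyrobp, Adgre1 and Nkg7 were at 0 in both libraries, and the 16 leukocyte markers, of which 11 and 12 were detected, summed to 61.4 CPM in the intact and 21.5 in the injured library. Pericyte and smooth muscle markers summed to 1059 and 219 CPM, and their part in the results below was not tested. There was 1 library per condition, so no test was possible and injury cannot be told apart from any other difference between the 2 preparations. Intervals are at 95% and cover counting error only.

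Interferon-stimulated genes were lower after injury, and most of the largest differences were in antiviral genes such as the IFIT family. Of the 44 genes, 40 had a mean over both libraries of at least 10 CPM and are called measured. Among the 40, 27 were at least 2-fold lower in injured endothelium once 5 CPM had been added to both values, none was 2-fold higher and 13 lay between. The same cuts took 6.82% of the 8268 measured genes as lower and 4.79% as higher. The median log2 ratio was -1.21 for the 40 genes and 0.04 for all measured genes. Ratio intervals lay below 1 for 38 of the 40 genes and held 1 for Ddx58 and Dhx58. The share of all measured genes with such intervals is not given here. These intervals are narrow at high counts and left out 1 for small differences too, such as Ifitm3 at a ratio of 0.959. The 38 are thus not read as a result about the list. Summed over all 44 genes, the level was 10723 CPM (10628 to 10819) in the intact and 6877 CPM (6840 to 6913) in the injured library, a 1.56-fold difference. A core of 17 antiviral genes (Ifit1, Ifit2, Ifit3, Ifit3b, Isg15, Irf7, Rsad2, Oasl2, Oas1a, Oas2, Mx1, Mx2, Usp18, Cmpk2, Zbp1, Ifi44 and Rtp4) summed to 1649 CPM (1611 to 1686) and 331 CPM (323 to 339), which is 4.98-fold lower (4.82 to 5.15). Like the list of 44, this core was chosen with earlier results of these data known. With the shallower cells of shared barcodes kept the core was 4.84-fold lower, and without any cell of a shared barcode 3.97-fold lower. The pooled values mix classes in different proportions, and with the 5 compared classes weighted equally the core was 2.77-fold lower and 16 of 40 genes were at least 2-fold lower. The plot of levels in pooled endothelium shows every gene.

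**Figure D1:**
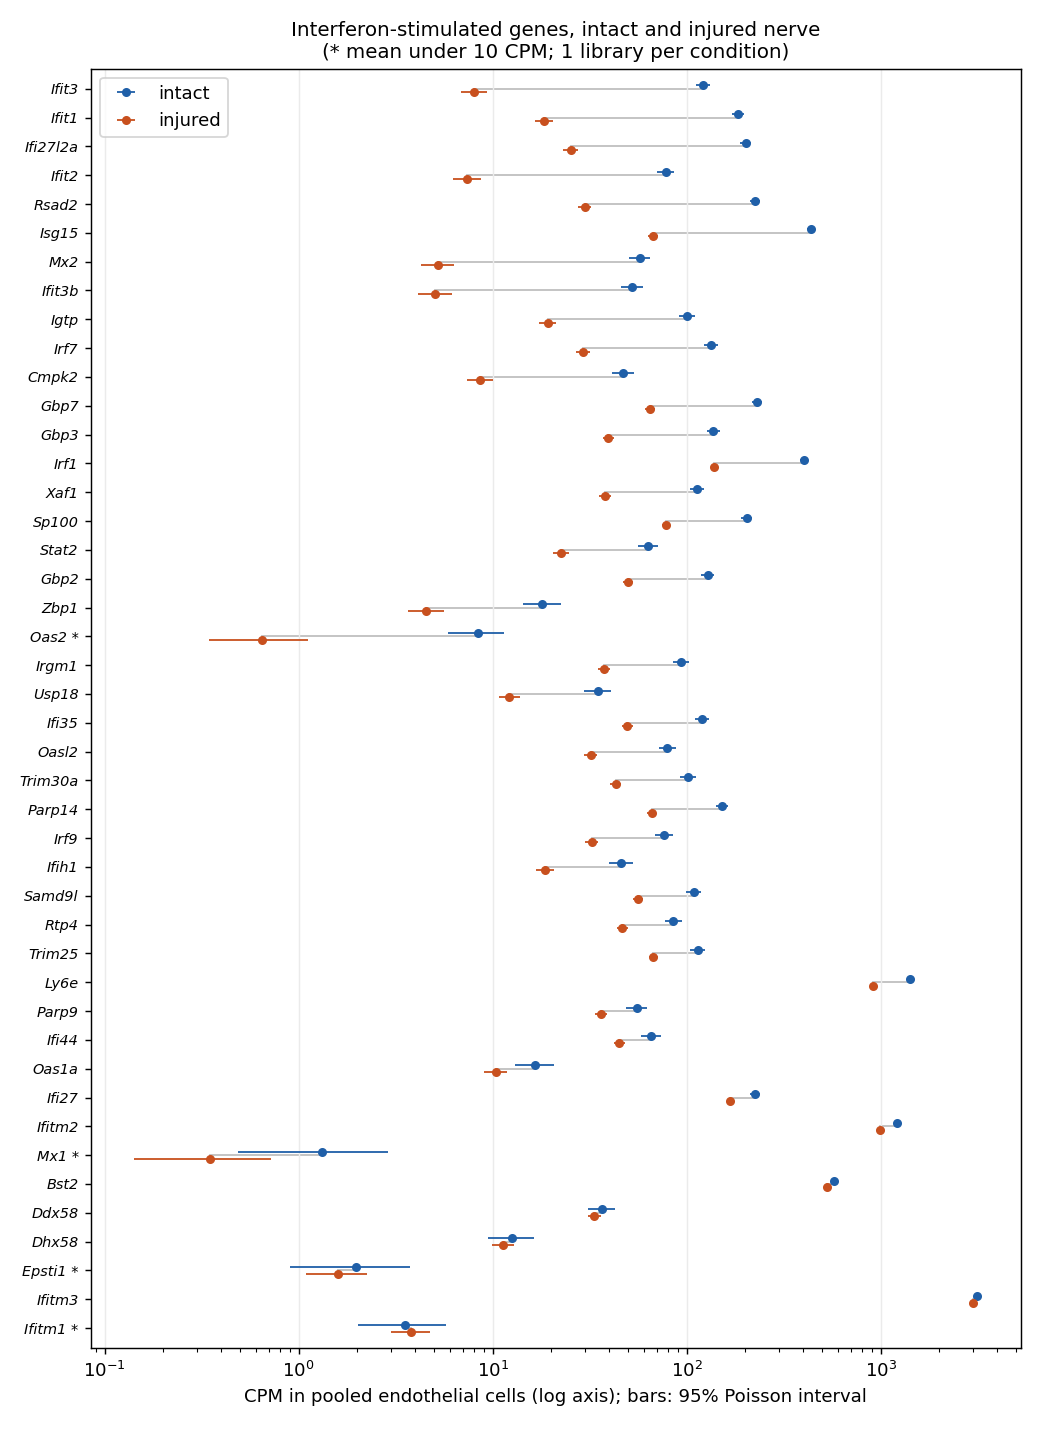
Levels of the 44 interferon-stimulated genes in pooled endothelial cells of the intact (blue) and injured (orange) library, in CPM on a log axis, with 95% Poisson intervals, ordered by log2 ratio. From Ifit3 down to Gbp7 the pairs of points are far apart, while Ifitm3, at 3138 and 3009 CPM, and Bst2, at 578 and 530 CPM, nearly coincide. An asterisk marks the 4 genes with a mean under 10 CPM.

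The transcription factors of the response were all at least 2-fold lower, 4 of 4. Irf7, which amplifies type I interferon transcription, stood at 134 CPM in the intact and 29.3 CPM in the injured library, 4.57-fold lower (4.07 to 5.12). Irf1, a factor induced by interferon gamma, had 402 and 138 CPM, 2.91-fold lower (2.74 to 3.09). Stat2, a partner in the ISRE-binding complex, had 63.2 and 22.6 CPM, 2.8-fold lower (2.41 to 3.25). Irf9, the DNA-binding subunit of that complex, had 76.6 and 32.4 CPM, which is 2.37-fold lower (2.07 to 2.7). Under the alternative settings Irf1 and Irf7 were past 2-fold throughout, Irf9 in 13 of 16 and Stat2 in 13 of the 15 in which it was measured, with log2 ratios of at most -0.79.

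Nucleic acid sensors were split, with 2 of 5 at least 2-fold lower. Ifih1, the sensor of long double-stranded RNA also called MDA5, had 46 CPM in the intact and 18.7 CPM in the injured library. Zbp1, a sensor of left-handed double-stranded nucleic acid that can start cell death, had 18.1 and 4.55 CPM. Ddx58, the sensor RIG-I, was within counting error of equal at 36.5 and 33.5 CPM (ratio 0.916, 0.772 to 1.09). Dhx58, which modulates the other RNA sensors, had 12.5 and 11.3 CPM (ratio 0.901, 0.671 to 1.23). The ratios of Ddx58 and Dhx58 crossed 1 under some of the alternative settings, so no direction is given for them. Trim25, a ubiquitin ligase that acts on RIG-I, was 1.7-fold lower at 114 and 67.3 CPM.

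Both genes of the ISG15 system were lower. Isg15, a ubiquitin-like protein that is attached to other proteins during the response, had the highest level of the antiviral core, 439 CPM (1994 UMIs) in the intact and 67.1 CPM (1342 UMIs) in the injured library, 6.54-fold lower (6.1 to 7.01). Usp18, the protease that removes Isg15 and damps receptor signalling, had 34.8 and 12.2 CPM, 2.85-fold lower (2.32 to 3.5).

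Genes of the IFIT, OAS and MX families and their companions showed the largest differences, with 8 of 9 measured genes at least 2-fold lower and a summed level 6.92-fold lower. The protein Ifit1 binds RNA that lacks the marks of host mRNA. The 4 IFIT genes of the list lie close together on chromosome 19, between 34550694 and 34650009 (GRCm38). Ifit3 had 122 CPM (555 UMIs) in the intact and 8.05 CPM (161 UMIs) in the injured library, 15.2-fold lower (12.7 to 18.2). Ifit2 had 77.9 and 7.4 CPM, 10.5-fold lower (8.66 to 12.8). Ifit1 had 184 and 18.4 CPM, 9.99-fold lower (8.82 to 11.3). Ifit3b, the near copy of Ifit3, had 52.6 and 5.05 CPM, so that the 4 genes were lower by similar factors. Of the 90-base windows of Ifit3 transcripts 35.1% occur unchanged in Ifit3b, and 30.5% of those of Ifit3b in Ifit3, so the split between this pair is uncertain.

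Rsad2, also called viperin, which makes a nucleotide that stops viral RNA synthesis, had 225 CPM (1023 UMIs) and 29.8 CPM (595 UMIs), 7.57-fold lower (6.83 to 8.38). Its neighbour on chromosome 12, the mitochondrial nucleotide kinase gene Cmpk2, had 47.1 and 8.6 CPM, 5.48-fold lower (4.46 to 6.73). Mx2, from a family of dynamin-like antiviral GTPases, had 57.2 and 5.2 CPM, 11-fold lower (8.73 to 13.9), and the annotation lists Mx2 as a polymorphic pseudogene. Oasl2, a relative of the enzymes that activate RNase L, was 2.48-fold lower at 79.7 and 32.1 CPM. Oas1a was the exception among the 9, 1.59-fold lower at 16.5 and 10.4 CPM, and 43.4% of its 90-base windows also occur in Oas1g.

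Membrane proteins were the group that differed least, with 1 of 7 measured genes at least 2-fold lower. Ifitm3, which blocks fusion of viruses in endosomes, had the highest level of the 44 genes, 3138 and 3009 CPM (ratio 0.959, 0.941 to 0.977). Its ratio lay above 1 with TMM scaling and with equal weight for classes, so it had no stable direction. Ifitm2, a close relative, had 1213 and 989 CPM (ratio 0.816, 0.792 to 0.841), and 37.8% of its 90-base windows occur in other annotated genes. Bst2, or tetherin, which holds budding virus at the cell surface, had 578 and 530 CPM (ratio 0.918, 0.879 to 0.958), and its ratio lay above 1 when all barcodes were used. Ly6e, a lipid-anchored surface protein, was 1.54-fold lower at 1413 and 917 CPM. Rtp4, a receptor-transporting protein, was 1.83-fold lower at 85.4 and 46.6 CPM. The small membrane proteins Ifi27 and Ifi27l2a are encoded side by side on chromosome 12 and differed from each other: Ifi27 had 226 and 167 CPM, 1.35-fold lower. Ifi27l2a had 202 CPM (917 UMIs) and 25.3 CPM (506 UMIs), 7.98-fold lower (7.15 to 8.91).

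All 5 GTPase genes were at least 2-fold lower. These proteins, whose genes respond strongly to interferon gamma, gather on vacuoles that hold pathogens. Igtp, an immunity-related GTPase, had 101 and 19.3 CPM, 5.22-fold lower (4.55 to 6). Its relative Irgm1, a regulator of the other GTPases, had 94 and 37.6 CPM. Among the guanylate-binding proteins, Gbp7 was 3.58-fold lower (3.29 to 3.88) at 232 and 64.7 CPM. Gbp3 had 138 and 39.6 CPM and Gbp2 had 128 and 50 CPM, so the 3 genes of this cluster on chromosome 3 differed by 2.57-fold to 3.58-fold.

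Of the remaining 8 measured genes, which encode nuclear body proteins, ADP-ribosylating enzymes and others, 5 were at least 2-fold lower. Xaf1, a promoter of cell death, had 113 and 38.1 CPM, 2.97-fold lower. Sp100, a nuclear body protein, had 204 and 78.6 CPM, 2.59-fold lower. Ifi35 had 121 and 49.5 CPM. Trim30a, a ubiquitin ligase, had 102 and 43 CPM. Parp14, an ADP-ribosyltransferase, had 153 and 66 CPM. Those nearest the 2-fold cut on its other side were Samd9l, a restriction factor of poxviruses, at 109 and 56.1 CPM, and Parp9, at 55.3 and 36.1 CPM. Ifi44 had 65.6 and 45.1 CPM. The 4 genes under 10 CPM were Oas2, with 38 and 13 UMIs, Ifitm1, with 16 and 76, Epsti1, with 9 and 32, and Mx1, with 6 and 7. As the injured cells held more UMIs in all, Oas2 was at 8.37 and 0.65 CPM, the clearest difference of these 4 (ratio 0.0777, 0.038 to 0.149).

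Other genes of interferon signalling came from a list of 97, of which 94 were found. A smaller share of them than of the 44 genes was past 2-fold. Their summed level was 1.46-fold lower, near the 1.56-fold of the 44 genes. The roles in the list differed: of 22 measured response genes 9 were at least 2-fold lower, with a median log2 ratio of -0.84. The summed level of the response genes was 2.05-fold lower. The 5 genes of the kinase group had a median of 0.04, and 0 were 2-fold lower. In this list 58 genes were measured and 14 were at least 2-fold lower, beside 6.82% of all measured genes. None was higher, beside 4.79%, and the median log2 ratio was -0.46. No ligand gene was measured: of 21 listed, Ifnab had 3 and 1 UMIs, Ifnz 0 and 3, Ifna2 0 and 1, and the others 0 in endothelial cells. Among receptors, Ifnar2 of the type I receptor had 180 CPM in the intact and 85.9 CPM in the injured library (ratio 0.477, 0.439 to 0.519). Il10rb, a chain shared by the receptors of interferon lambda and interleukin 10, had 111 and 36 CPM. In contrast Ifngr2, the signalling chain of the interferon gamma receptor, had 20.7 and 40.9 CPM (ratio 1.98, 1.59 to 2.47), and Ifngr1 had 151 and 153 CPM.

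The kinase Jak1, used by every interferon receptor, had 166 and 310 CPM (ratio 1.86, 1.73 to 2.01). The feedback inhibitor Socs1, which blocks the kinases, had 43.2 and 8.1 CPM, a log2 ratio of -1.88. Tmem173, the adaptor STING, had 55.9 and 102 CPM (ratio 1.82, 1.59 to 2.08). Further GTPase genes of the response held the lowest values of the list, with Gbp5 at 135 and 12.5 CPM and Gbp4 at 182 and 35.5 CPM. For antigen presentation, 2 of 9 genes were at least 2-fold lower: Tap2, part of the peptide transporter, and Psmb9, an immunoproteasome subunit, with log2 ratios of -1.08 and -1.02. Of the chemokine genes, Cxcl10 had 25.1 and 38.7 CPM (ratio 1.54, 1.27 to 1.89) and Cxcl9 had 14.8 and 10.7 CPM.

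In intact nerve, the level of the antiviral core differed 7.65-fold (6.99 to 8.38) between the classes EC_BAR and EC_VEN-PV+. It was 3048 CPM (2956 to 3142) in EC_BAR, 1948 in EC_VEN-PV- and 1826 in EC_ART, the last 2 with overlapping intervals. EC_CAP-PV+ and EC_CAP-PV- followed at 1015 and 1006 CPM, also overlapping, and EC_VEN-PV+ had 399 CPM (365 to 434). Barrier markers, 6 genes of the blood-nerve barrier, summed to 9272 CPM in EC_BAR and 265 CPM in EC_VEN-PV+. Of the 40 genes measured over these 6 classes, 29 were highest in EC_BAR, where 8.27% of 8278 measured genes had their highest level. Measured here means a mean of at least 10 CPM over the 6 classes, which a high level in EC_BAR alone can bring about. In EC_VEN-PV+ 22 of the 40 were lowest, against 13.9% of all, and in EC_CAP-PV+ 12 were lowest, against 23.6%.

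Single genes spanned a wide range between classes of the intact library. Rsad2 stood at 488 CPM in EC_BAR (664 UMIs) and 6.69 CPM in EC_VEN-PV+ (9 UMIs), a 72.9-fold difference (38.2 to 160). Isg15 had 800 and 88.5 CPM in the same classes, 9.04-fold (7.48 to 11). Irf7 differed 9.88-fold, at 235 and 23.8 CPM, and Ifit1 7.39-fold, at 357 and 48.3 CPM. Ifi27l2a had another order: its level was 941 CPM in EC_ART, 166 in EC_BAR and 25.3 in EC_VEN-PV+, and EC_ART held 567 of the 917 UMIs in pooled endothelium. Ifitm2 was highest in EC_VEN-PV+, at 1688 CPM, and lowest in EC_ART, at 763 CPM. Ifitm3 ranged from 1855 CPM in EC_CAP-PV+ to 3559 CPM in EC_VEN-PV-. Irf1 and Irf9 were highest in EC_VEN-PV-, at 650 and 112 CPM. The map of intact levels by class orders the genes from Rsad2 to Ifitm2 by the difference between EC_BAR and EC_VEN-PV+.

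**Figure D2:**
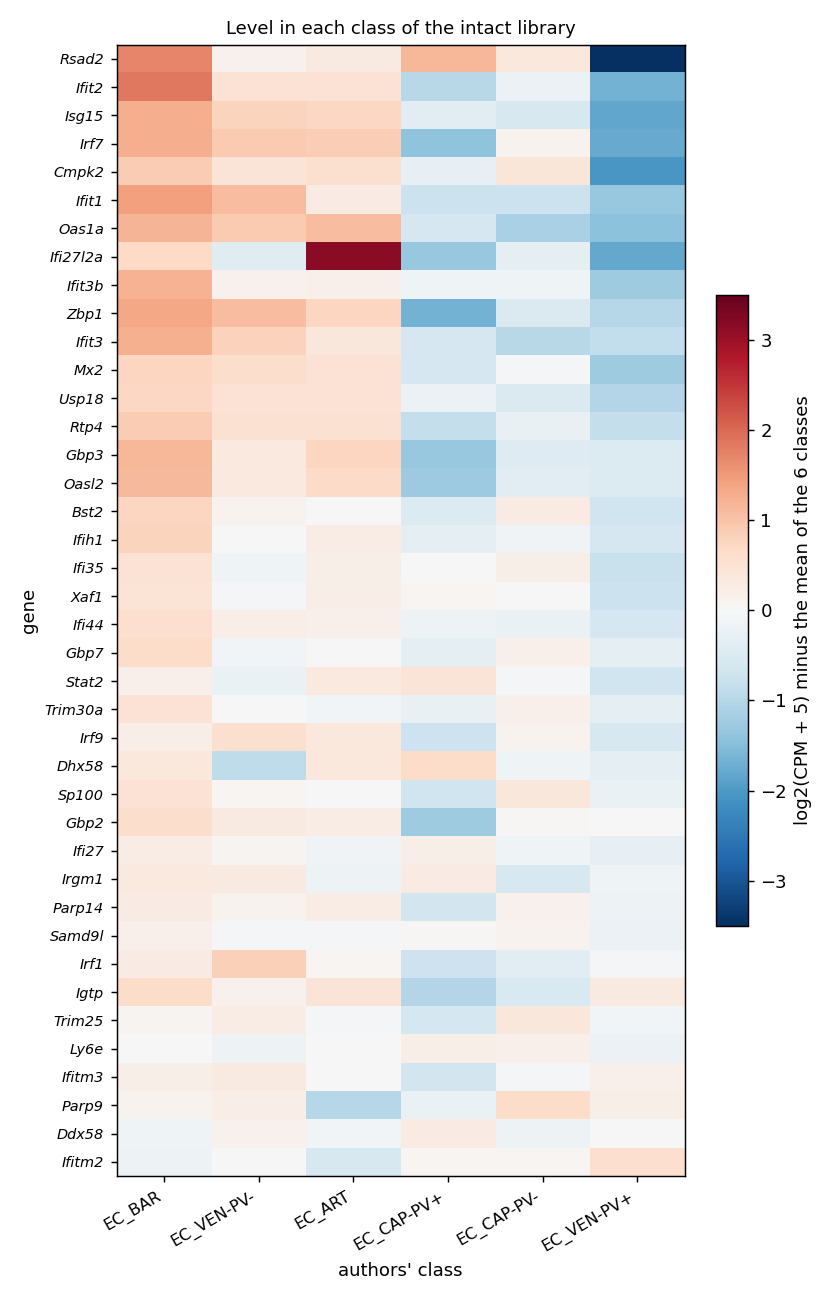
Level of the 40 genes measured in 6 endothelial classes of the intact library, as log2(CPM + 5) minus the mean over the 6 classes (red above, blue below), ordered by the difference between EC_BAR and EC_VEN-PV+. Rsad2, at 488 and 6.69 CPM in these classes, tops the order, and Ifi27l2a stands out in EC_ART at 941 CPM.

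Within classes the core was lower after injury in each of the 5 endothelial classes with at least 20 cells in both libraries, and the size varied. The class EC_VEN-PV- had 1948 CPM in 44 intact cells and 230 CPM (206 to 256) in 121 injured cells, 8.48-fold lower (7.47 to 9.64), between cells whose venous and capillary markers also differed. In EC_ART the core had 1826 CPM and 402 CPM (375 to 431), 4.54-fold lower (4.14 to 4.98). EC_CAP-PV- was 2.27-fold lower at 1006 and 444 CPM. EC_BAR had the highest level of the injured library, 1626 CPM (1496 to 1764) against 3048, 1.87-fold lower (1.72 to 2.05). EC_VEN-PV+, the lowest class of the intact library, was 1.5-fold lower (1.35 to 1.66) at 399 and 266 CPM. EC_VEN-PV- and EC_VEN-PV+, far apart in the intact library, thus had overlapping intervals in the injured one (206 to 256 and 251 to 281 CPM). The intervals of these ratios do not overlap between EC_VEN-PV-, EC_ART and EC_CAP-PV-, but the differences between classes were not tested. Injured EC_BAR rests on 36 cells, since 47 of 83 had a deeper cell of the same barcode in the intact library, and without its cell of most core UMIs (133 of 577) the level was 1353 CPM.

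Markers of other kinds also differed within classes, and their part in these values was not tested. Barrier markers summed to 6290 CPM in intact and 821 CPM in injured EC_VEN-PV- cells, to 6031 and 2433 in EC_ART and to 9272 and 3669 in EC_BAR. In EC_CAP-PV- they summed to 1363 and 1147 CPM and in EC_VEN-PV+ to 265 and 190 CPM. Pericyte and smooth muscle markers were at 1109 and 319 CPM in EC_VEN-PV-, at 1452 and 163 in EC_BAR and at 1483 and 343 in EC_VEN-PV+. They were at 344 and 56.1 CPM in EC_CAP-PV- and at 111 and 286 in EC_ART. The vessel markers of EC_VEN-PV- cells also differed between the libraries: venous markers summed to 989 CPM in the intact and 3356 CPM in the injured library, and capillary markers to 1209 and 58.5 CPM. Leukocyte markers summed to at most 35.3 CPM in each of the 5 classes of either library, but to 3454 CPM in the 11 intact EC_PROLIF cells, which were compared only as part of pooled endothelium.

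**Figure D3:**
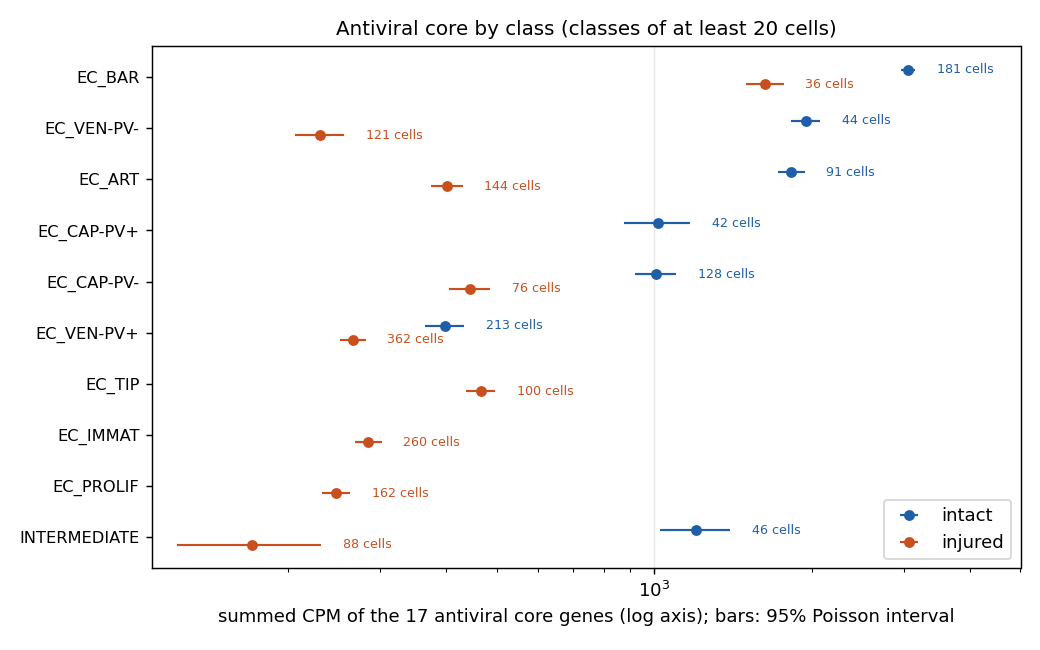
Summed level of the 17 antiviral core genes in CPM (log axis) in each class with at least 20 cells, for the intact (blue) and injured (orange) library, with 95% Poisson intervals and cell numbers. EC_BAR is the highest class in both libraries, at 3048 and 1626 CPM, and EC_VEN-PV- has 1948 and 230 CPM.

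The classes EC_IMMAT, EC_PROLIF and EC_TIP held 4, 11 and 4 intact cells and were not compared. Their injured levels of the core were 285 CPM in 260 cells, 247 CPM in 162 cells and 466 CPM in 100 cells. In EC_TIP a single cell held 379 of the 918 core UMIs (41.3%), and the level without it was 280 CPM (256 to 304). EC_CAP-PV+ had 1015 CPM in 42 intact cells and 415 CPM (290 to 574) in 13 injured cells. Among 8 classes of the injured library 29 of 38 measured genes were highest in EC_BAR, against 17.9% of all measured genes, and 13 were lowest in EC_PROLIF, against 10.3%.

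EC_VEN-PV- and EC_ART had the most genes at least 2-fold lower. In EC_VEN-PV-, whose vessel markers differed between the libraries, 27 of 40 measured genes were lower and 1 was higher, with a median log2 ratio of -1.41, against 6.34% and 7.91% of all genes measured in that class. Rsad2 had 81 UMIs (165 CPM) in intact and 1 UMI (0.7 CPM) in injured EC_VEN-PV- cells, a ratio of 0.0042 (0.00011 to 0.0243). There Ifit3 had 160 and 3.48 CPM, 46.1-fold lower (18.9 to 146). Ifit1 had 274 and 9.75 CPM, 28.1-fold lower (16.2 to 52.8), and Isg15 565 and 57.1 CPM, 9.89-fold lower (7.7 to 12.8). The exception was Ifitm1, with 5 and 48 UMIs, at 10.2 and 33.4 CPM (ratio 3.29, 1.32 to 10.6). In EC_ART 29 of 41 genes were lower and none higher, against 7.31% and 6.07%, with a median of -1.34. Ifi27l2a, highest in this class in the intact library, had 941 and 69.4 CPM, 13.6-fold lower (11.3 to 16.4). Igtp in EC_ART had 111 and 13.8 CPM, 8.07-fold lower (5.12 to 13). Ifitm2 was slightly higher there, at 763 and 909 CPM (ratio 1.19, 1.07 to 1.32).

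The other 3 classes had fewer such genes. EC_CAP-PV- had 14 of 38 lower and 0 higher, against 9.21% and 5.76%, with a median of -0.79. Its lowest ratios among genes at 100 CPM or more were those of Sp100, at 245 and 78 CPM, and Isg15, at 218 and 73.2 CPM. EC_BAR had 11 of 41 lower and 0 higher, against 6.87% and 6.29%, with a median of -0.60. Isg15 in EC_BAR had 800 and 242 CPM, 3.3-fold lower (2.65 to 4.16), and Irf1 447 and 144 CPM, 3.11-fold lower (2.33 to 4.22). Rsad2 differed less in EC_BAR, at 488 and 310 CPM (ratio 0.635, 0.515 to 0.779), and Cmpk2 had 78.6 and 87.4 CPM (ratio 1.11, 0.72 to 1.67). EC_VEN-PV+ had 5 of 34 lower and 0 higher, against 4.61% and 3.77%, with a median of -0.51: Ifit1, Ifit3, Mx2, Gbp7 and Igtp. There Igtp had 102 and 24.2 CPM, 4.21-fold lower (3.26 to 5.44), while Irf7 had 23.8 and 24.8 CPM (ratio 1.04, 0.701 to 1.59). Bst2 in EC_VEN-PV+ was higher after injury, at 319 and 500 CPM (ratio 1.57, 1.41 to 1.74).

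Across the 5 classes, 33 genes were measured in every class, and the ratio interval of 13 of them lay below 1 in all 5 (Ifit1, Ifit3, Isg15, Irf1, Irf9, Mx2, Ifi35, Xaf1, Trim30a, Gbp2, Gbp7, Ly6e and Sp100). Ifit3, Mx2 and Gbp7 were at least 2-fold lower in all 5 classes. Gbp7 varied least of these, with log2 ratios from -1.61 to -1.15, and Ifit3 ranged from -4.29 to -1.25. At the other end 9 genes measured in some class were 2-fold lower in none: Ifi27, Ifitm1, Ifitm2, Ifitm3, Ddx58, Dhx58, Trim25, Samd9l and Ly6e. Of these, Ifitm1 was measured only in EC_VEN-PV-, where it was higher. Shares of all genes at these cuts across classes are not given here, so the counts are not read as a result about the list. The log2 ratio of Ifitm3 lay between 0.01 and 0.14 in the 5 classes. Since the classes come from the same 2 libraries, they are not replicates of the injury. The map of ratios by class shows this gradient.

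**Figure D4:**
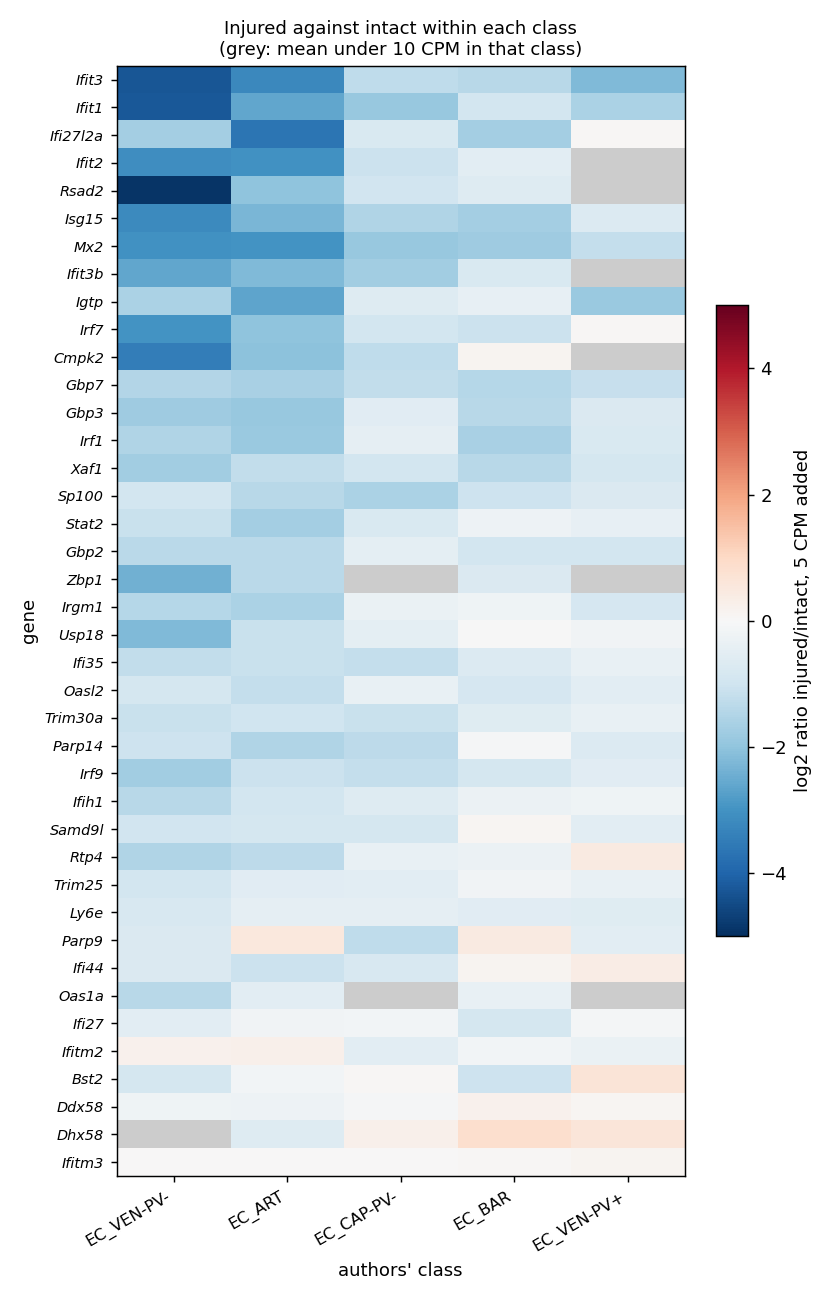
Log2 ratio of injured over intact CPM (5 CPM added) of the 40 genes in the 5 classes compared, blue where lower and red where higher after injury, grey where the mean in the class was under 10 CPM. The darkest cells are Rsad2 (-4.90), Ifit3 (-4.29) and Ifit1 (-4.24) in EC_VEN-PV-, and the row of Ifitm3 at the bottom is nearly white.

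The class INTERMEDIATE, with 46 intact and 88 injured cells, had 22 of 37 genes at least 2-fold lower and 1, Ddx58, higher, beside 16.5% and 14.9% of all genes. Its core had 1200 and 171 CPM, from 167 and 41 UMIs. Leukocyte markers in INTERMEDIATE summed to 28.7 CPM in the intact and 599 CPM in the injured library. Fibroblast markers summed to 3917 and 1452 CPM, pericyte and smooth muscle markers to 2372 and 171, perineurial markers to 424 and 117 and barrier markers to 4312 and 737. The part of these differences in the values was not tested.

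At equal depth per cell, core genes were found in a larger share of intact than of injured endothelial cells. Every cell was thinned at random to 3000 UMIs, which left out 236 intact and 51 injured endothelial cells with fewer. At least 3 core genes were then detected in 201 of 482 intact cells (41.7%, 37.3 to 46.2, Clopper-Pearson) and in 98 of 1223 injured cells (8.01%, 6.55 to 9.68). Near this cut, 63 intact and 145 injured cells had 2 core genes and 51 and 57 had 3. Without thinning the shares were 47.9% and 42.5%, at median depths of 4461 and 11684 UMIs. No core gene was detected in 22.8% of intact and 51.9% of injured cells after thinning.

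**Figure D5:**
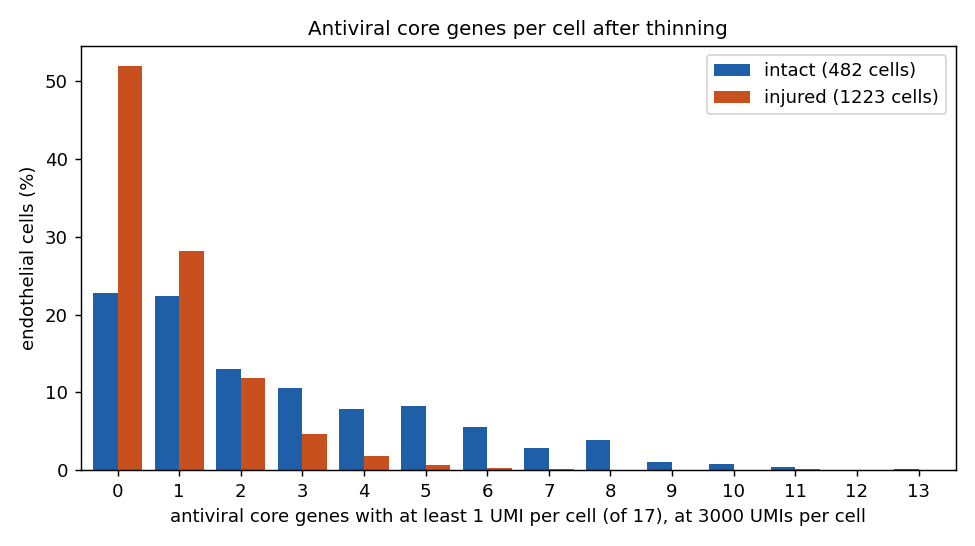
Share of endothelial cells (%) by the number of the 17 antiviral core genes with at least 1 UMI after thinning to 3000 UMIs, for 482 intact (blue) and 1223 injured (orange) cells. Injured cells pile up at 0 genes (51.9%) and intact cells extend to 13 genes.

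By class the share of cells with at least 3 core genes was 78.5% (95 of 121) in intact and 30.3% (10 of 33) in injured EC_BAR. In EC_VEN-PV- it was 56.8% (25 of 44) and 6.03% (7 of 116). EC_VEN-PV+ had the lowest share of the intact classes of at least 20 cells, 9.64% (16 of 166), against 5.37% (19 of 354) after injury. Isg15 was detected in 47.3% of intact and 15.1% of injured endothelial cells at equal depth, and Ifit3 in 21.8% and 2.29%. Rsad2 was found in 67 of 121 intact EC_BAR cells (55.4%) and in 3 of 166 intact EC_VEN-PV+ cells (1.81%), at median depths of 7560 and 6033 UMIs before thinning. Ifitm3, by contrast, was detected in 481 of 482 intact and 1216 of 1223 injured cells. Free RNA from other cells can add single UMIs to any of these shares.

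Isg15 was found more often in cells with Ifit3 than among all cells. Of 105 intact cells with Ifit3, 81 (77.1%) had Isg15, which was detected in 47.3% of all intact cells. Of 28 injured cells with Ifit3, 14 (50%) had Isg15, against 15.1% of all. These shares come from cells of equal depth but of different classes. In intact EC_BAR Isg15 was found in 40 of 45 cells with Ifit3 and in 92 of all 121 cells, a smaller gap than in pooled cells. The intact counts were 13 of 15 and 35 of 60 in EC_ART, and 10 of 19 and 35 of 166 in EC_VEN-PV+. At least 8 core genes were detected in 31 intact cells, 22 of them EC_BAR, and in 6 injured cells, 5 of them EC_BAR and 1 EC_TIP. The 5% of cells with most core UMIs held 27.1% of those UMIs in the intact and 38.9% in the injured library. The highest cell had 33 and 66 core UMIs after thinning. Thinned cells held 4.31 and 1.08 core UMIs on average, so these 2 shares rest on unequal counts and are not compared.

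Cxcl10, a chemokine gene outside the list of 44, came from few cells in some classes. In injured EC_BAR 75 Cxcl10 UMIs came from 4 cells, and 74 of them from the 7 cells with at least 8 core genes before thinning. The level of Cxcl10 in EC_BAR was 211 CPM in the injured library and 6.61 CPM in the intact library, there from 9 UMIs in 4 cells. In injured EC_TIP 134 of 136 Cxcl10 UMIs were in the 8 such cells, whereas in injured EC_VEN-PV+, where 42 of 362 cells had Cxcl10, 127 of 324 were. Such cells held 46 of 57 in injured EC_CAP-PV-, but 2 of 14 in EC_ART and 5 of 24 in EC_IMMAT. They held 15 of 103 in injured EC_PROLIF and 0 of 37 in injured EC_VEN-PV-. In intact EC_BAR the 69 such cells held 5 of 9 Cxcl10 UMIs. In EC_VEN-PV- the gene was lower after injury, at 89.4 CPM in 44 intact cells, of which 11 had it, and 25.8 CPM in 121 injured cells, of which 15 had it. A cut of 8 core genes before thinning favours cells with more UMIs. The share of all UMIs in the cells past this cut is not given here. The Cxcl10 counts in those cells are thus not read as a link with the core.

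Barcodes without a class in the authors' cell table, 738 in the intact and 516 in the injured library, had no measured gene of the 44 past 2-fold in either direction once 5 CPM had been added. There 34 genes were measured, 0 were lower and 0 higher, beside 6.78% and 6.3% of all genes, and the median log2 ratio was -0.08. The core had 292 CPM (277 to 308) in the intact and 244 CPM (232 to 256) in the injured library. Ly6e, Bst2 and Ifitm3 were higher after injury in these barcodes, with ratios of 1.96 (1.84 to 2.08), 1.93 (1.76 to 2.12) and 1.53 (1.48 to 1.58). Isg15 had 92.3 and 59.5 CPM, and Ifi27l2a, the gene highest in intact EC_ART, had 154 and 164 CPM. The cell types in these barcodes differed between the libraries: fibroblast markers summed to 11203 and 16890 CPM, lymphatic markers to 4334 and 644, pericyte and smooth muscle markers to 2853 and 2202 and perineurial markers to 1846 and 340. Leukocyte markers summed to 111 and 36.5 CPM, and the part of these differences in the values was not tested.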

How the data were processed

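The 2 matrices deposited by the authors hold whole-number counts of UMIs per gene and barcode without normalization, and the authors' deposited cell table gives the class of each annotated cell. The matrices carry the software version 3.0.2, per the file headers, and the submitters' processing notes name Cell Ranger 6.1.2, so the version that made the counts is not settled here. The notes also name Seurat 4.0.1, mm10 and GRCm38. The sources used here do not give the authors' cell filters, treatment of doublets or way of classing cells, and no doublet caller was run. Whether reads shared by near-identical genes were counted is likewise not given there.

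Cells were matched by library and barcode, and UMIs were summed per gene, class and library with Python 3.11.15, numpy 2.4.6, pandas 2.3.3 and scipy 1.17.1. CPM carry exact Poisson intervals, ratios exact conditional binomial intervals and shares Clopper-Pearson intervals, all at 95% and for counting error only, since nothing replicates a condition. Log2 ratios had 5 CPM added. Genes with a mean under 10 CPM were not counted, and lower or higher means past 2-fold. Classes were compared at 20 cells or more in both libraries. The code was tested on simulated data with known changes. TMM factors came from edgeR 4.0.16 in R 4.3.3. Positions came from GENCODE vM21, in which all 44 genes were found, 42 with the same version.

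Named were every measured gene of the list with at least 30 UMIs in the higher library, up to 4 lowest and 4 highest ratios within a class at 100 CPM or more, and up to 2 lowest and 2 highest per role in the wider pathway list. Other values within classes and cells were named after they were seen. The genes and lists were chosen with earlier results of these data known. Figures were drawn with matplotlib 3.10.9. A gene of the wider pathway list is not reported here.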

Additional observations from a re-analysis of the deposited data

Results flagged for a closer look

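For 3 genes the counting intervals of the injured over intact ratio lay above 1 in some classes and below 1 in others. With 1 library per condition the difference between classes was not tested.

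Bst2, which tethers budding virus, had a ratio of 1.57 (1.41 to 1.74) in EC_VEN-PV+, at 319 CPM in the intact and 500 CPM in the injured library. In EC_BAR its ratio was 0.482 (0.404 to 0.572), at 871 and 420 CPM, and in EC_VEN-PV- 0.538 (0.462 to 0.628), at 567 and 305 CPM. After injury the class with the lowest intact level thus stood above both of these.

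Ifitm2, which blocks viral entry, had a ratio of 1.19 (1.07 to 1.32) in EC_ART and 1.17 (1.07 to 1.29) in EC_VEN-PV-. It was 0.694 (0.624 to 0.773) in EC_CAP-PV- and 0.797 (0.76 to 0.837) in EC_VEN-PV+. As 37.8% of its 90-base windows occur in other annotated genes, its level is uncertain.

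Rtp4, a receptor-transporting protein, had a ratio of 1.43 (1.05 to 1.97) in EC_VEN-PV+, at 37.2 and 53 CPM. It was 0.377 (0.267 to 0.533) in EC_ART, at 105 and 39.4 CPM, and 0.323 (0.213 to 0.488) in EC_VEN-PV-, at 104 and 33.4 CPM.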

How the results depend on the processing

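No paired analysis was possible because there is 1 library per condition and the labels give no replicate numbers. The core and the sum of the 44 genes stayed lower after injury in pooled endothelium under all 16 alternatives, and so did the core under the 9 alternatives run within each of the 5 classes. Of 40 genes, 13 were at least 2-fold lower wherever they had a value (Ifit1, Ifit2, Ifit3, Ifit3b, Ifi27l2a, Isg15, Irf1, Irf7, Rsad2, Mx2, Gbp3, Gbp7 and Igtp). The share of all genes that stayed past the cut in this way is not given here. The log2 ratios of Ifitm3, Bst2, Ddx58 and Dhx58 crossed 0 under some settings. The cause of each change below was not tested.

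Log2 ratios of the summed core in pooled endothelium, -2.32 as reported, were -2.19 with TMM scaling, -2.25 with totals without mitochondrial and ribosomal protein genes, -1.97 as a mean of per-cell CPM, -1.47 with classes weighted equally, -1.99 after thinning to 3000 UMIs, -2.52 in cells under 5% mitochondrial UMIs, -1.99 without any cell of a shared barcode, -2.24 without cells with leukocyte marker UMIs, -2.22 without dividing cells and -1.63 over all barcodes. For the sum of the 44 genes, -0.64 as reported, the same settings gave -0.52, -0.58, -0.51, -0.47, -0.52, -0.71, -0.53, -0.61, -0.56 and -0.20. The median of the measured genes, -1.21 as reported, was -1.11 with TMM, -1.01 per cell, -0.87 with equal classes, -1.10 thinned, -1.10 without shared barcodes, -1.17 without leukocyte marker cells, -1.16 without dividing cells and -0.78 over all barcodes. TMM scaling moved the median of all genes from 0.04 to 0.15.

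Genes at least 2-fold lower numbered 27 of 40 as reported, beside 6.82% of all measured genes, 16 of 40 with equal classes, beside 4.63%, and 14 of 38 over all barcodes, beside 8.27%. Of the pathway list 14 of 58 were lower as reported, 7 at a mean of at least 50 CPM, beside 8.11%, and 3 over all barcodes, beside 8.27%. Fewer pathway genes reach a mean of 50 CPM. The numbers measured under these other settings are not given here, so these counts are not compared with 14 of 58. In that list 1 was higher per cell, with equal classes, without dividing cells and over all barcodes. Its median, -0.46 as reported, was -0.20 with no minimum CPM and -0.14 over all barcodes.

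Within classes a minimum of 50 CPM left 8 genes lower in EC_CAP-PV-, 2 in EC_VEN-PV+ and 17 with 0 higher in EC_VEN-PV-. Fewer genes were measured at this minimum than as reported, and their numbers are not given here. Shares of all genes beside the class counts in this paragraph are not given here. Per-cell means gave core ratios of -1.87 in EC_ART, -0.59 in EC_BAR and -0.91 in EC_CAP-PV-, with 2 genes higher in EC_BAR and 1 in EC_CAP-PV-. Cells under 5% mitochondrial UMIs gave -2.36 in EC_ART, -0.57 in EC_BAR with 2 genes higher, and -3.34 in EC_VEN-PV- with 0 higher. Without shared barcodes the core was -1.69 in EC_ART, -0.74 in EC_BAR with 1 gene higher, and -2.87 in EC_VEN-PV-. Without leukocyte marker cells it was -1.95 in EC_ART. Leaving out the cell of each class with most core UMIs, chosen after the values were seen, gave -2.40 pooled and -1.11 in EC_BAR.

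The share of cells with at least 3 core genes was 41.7% and 8.01% as reported, 54.8% and 19.9% at 2 genes, 23.2% and 1.55% at 5 genes, 14% and 1.57% after thinning to 1000 UMIs, 30.2% and 4.3% at 2000 UMIs, and 47.9% and 42.5% without thinning. Depth limits genes at a few UMIs per class, such as Rsad2 in injured EC_VEN-PV- cells, to wide intervals.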

Other observations

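Ifng, the gene of interferon gamma, had 21 UMIs in the intact and 24 in the injured library among barcodes without a class, and 0 in endothelial cells of either library. Cxcl10, a chemokine gene induced by interferon gamma, had 30 and 152 UMIs in the barcodes without a class, at 6.47 and 22.3 CPM (ratio 3.44, 2.32 to 5.28). Cxcl10 was higher after injury there and in pooled endothelium, but lower in EC_VEN-PV-, at 89.4 and 25.8 CPM.

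Cxcl9, a related chemokine gene, had 60 UMIs in 22 of 128 intact EC_CAP-PV- cells, at 123 CPM, and 19 UMIs in 8 of 76 injured ones, at 18.1 CPM. In injured EC_PROLIF 117 Cxcl9 UMIs came from 6 of 162 cells, and 0 of the 117 from the 12 cells there with at least 8 core genes before thinning.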
